A study of Mus musculus with 36 samples.

Results

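The regions described here are narrow stretches of H3K4me3, the methylation mark of promoters, that carried H3K9bhb in fasted mouse intestinal crypts. They were chosen by measured values. Peaks of the 4 deposited H3K4me3 lists were merged where they overlapped or touched, which gave 19358 regions. A member was shorter than 5000 bp, had an H3K4me3 peak in both fasted pools, met an H3K9bhb peak of both fasted pools by at least 1 bp, and met no H3K27me3 peak of a fasted pool. This left 4841 members, 25.01% of all merged regions and 39.3% of the 12324 regions in both fasted H3K4me3 lists. Fasted H3K4me3, H3K9bhb and H3K27me3 and the length of the regions are therefore not findings. Genes were not assigned here, so that the regions are promoters was not checked against an annotation, and they are called members below.

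In lysine β-hydroxybutyrylation, here of histone H3 (H3K9bhb) and histone H4 (H4K12bhb), the acyl group derives from β-hydroxybutyrate, the ketone body that the liver releases during fasting. H3K4me3 sits over the start sites of genes, and H3K27ac accompanies active promoters and enhancers. H3K4me1 flanks start sites and marks enhancers, and H3K79me2 extends from the start into the body of transcribed genes. H3K27me3 is the Polycomb mark of silenced genes, and H3K9me3 marks heterochromatin. Intestinal crypts hold the stem and progenitor cells that renew the gut lining.

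Chromatin immunoprecipitation and sequencing was done on whole crypts of the small intestine of mice labelled wildtype, of the strains Lgr5EGFP-IRES-CreERT2/+ and C57BL/6J, the former carrying a reporter and Cre at the stem cell gene Lgr5. Males and females of 6 to 12 weeks were housed singly, and the crypts of 4 animals were pooled for each replicate. Pools 1 and 4 came from fed animals, which could eat and drink freely, and pools 2 and 5 from fasted animals, which had water but no food for 24 h. Trichostatin A, an inhibitor of histone deacetylases, was present at 100 nM during crypt isolation in all groups. Before cross-linking, the crypts of all groups were held in medium that also contained SB431542, a TGF-β receptor kinase inhibitor, and a second kinase inhibitor, Y-27632. Which strain went into which pool is not given in the labels. Each pool gave a peak list for each of 8 marks, called against the input of that pool. A pool is the unit of replication, so the spread given below is between pools. A mark in more cells and more mark per cell cannot be told apart in a peak list.

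The 32 lists differed in length, and read depth is unknown. The H3K9bhb lists held 19555 and 13923 peaks in fed pools 1 and 4, and 38934 and 37640 in fasted pools 2 and 5. Some fed libraries stood apart. Fed pool 1 had only 309 H3K4me1 and 571 H3K79me2 peaks, and fed pool 4 only 295 H3K4me3 peaks. File names place fed pool 1 and fasted pool 2 in run 10, and fed pool 4 and fasted pool 5 in run 11. The H3K4me1 and H3K79me2 lists were longer in both pools of run 11 than in either pool of run 10.

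Members were compared with regions that differed from them in one property of the rule. Among the 9371 narrow regions in both fasted H3K4me3 lists and without fasted H3K27me3, 51.7% were members. A further 1717 met H3K9bhb in 1 fasted pool, and 2813 met it in neither. Another 1621 regions followed the rule but were broad, with a length of 5000 bp or more. The median length was 3357 bp for members, 2872 bp for narrow regions with H3K9bhb in 1 fasted pool, 2362 bp for those without, and 6130 bp for broad regions. Members ranged from 901 to 4998 bp and covered 15.95 Mb.

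Members carried the second β-hydroxybutyryl mark far more often than narrow regions without H3K9bhb. H4K12bhb was called at 90.4% and 70.9% of members in fed pools 1 and 4, and at 97.3% and 88.8% in fasted pools 2 and 5. At narrow regions without H3K9bhb the same lists reached 18.9% and 8.9% in fed pools, and 30.0% and 20.5% in fasted pools. All 4 values of members lay above all 4 values of the comparison regions. The difference within a pool was 67.3 ± 3.9 percentage points (SD, n = 4 pools) and was positive in 4 of 4 pools. A two-sided exact permutation test that flips the sign of each pool's difference gave p = 0.125, the smallest value that 4 pools allow. The difference is therefore larger than the spread between pools, although the design cannot reach a threshold of 0.05.

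H3K27ac, the acetylation mark of active promoters, was near complete at members in fasted crypts. It was called at 82.8% and 51.8% of members in fed pools 1 and 4, and at 99.3% and 99.8% in fasted pools 2 and 5. Narrow regions without H3K9bhb had 21.7% and 7.3% in fed pools, and 70.0% and 90.0% in fasted pools. The gap in favour of members was 61.1 and 44.5 points in fed pools and 29.4 and 9.82 points in fasted pools. Its mean was 36.2 ± 21.9 points (SD, n = 4 pools), with an exact permutation p of 0.125. The gap was smallest where nearly every region had the mark.

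H3K4me1 and H3K79me2, which flank starts and follow transcription, were also more frequent at members. H3K4me1 met 0.45% and 73.0% of members in fed pools and 37.4% and 88.2% in fasted pools. The difference from narrow regions without H3K9bhb was 31.0 ± 21.6 points (SD, n = 4 pools, exact permutation p = 0.125), and 41.3 points as a mean without fed pool 1. H3K79me2 met 0.81% and 67.9% of members in fed pools and 24.7% and 66.7% in fasted pools. Its difference was 18.4 ± 13.1 points (SD, n = 4 pools, exact permutation p = 0.125), and 24.4 points without fed pool 1. Both differences were positive in 4 of 4 pools, and those of fed pool 1 were below 1 point, in lists of 309 and 571 peaks. An H3K79me2 peak was missing in every pool at 1267 members (26.2%), against 36.7% of all 12324 regions in both fasted H3K4me3 lists and 53.5% of narrow regions without H3K9bhb.

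Silencing marks were close to absent. By the rule no member met fasted H3K27me3, and 1 member met an H3K27me3 peak of fed pool 1. A count of 0 of 4841, as in fed pool 4, has a Wilson 95% upper limit of 0.079%. Fed H3K27me3 of pools 1 and 4 met 3.58% and 2.38% of the 12324 regions in both fasted H3K4me3 lists. At narrow regions without H3K9bhb, from which fasted H3K27me3 was excluded too, it met 0.14% and 0.11%. The near absence is therefore not particular to members. The other silencing mark, H3K9me3, met 1, 1, 2 and 10 members in fed pools 1 and 4 and fasted pools 2 and 5. It was also rare among all 12324 regions in both fasted H3K4me3 lists, at 0.16%, 0.08%, 0.41% and 1.27%, and its lists held 208, 59, 521 and 4376 peaks. Narrow regions without H3K9bhb met H3K9me3 more often than members in every pool, at 0.60%, 0.25%, 1.46% and 4.37% in the same order. The member shares were 0.02%, 0.02%, 0.04% and 0.21%, and this difference was not tested.

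**Figure D1:**
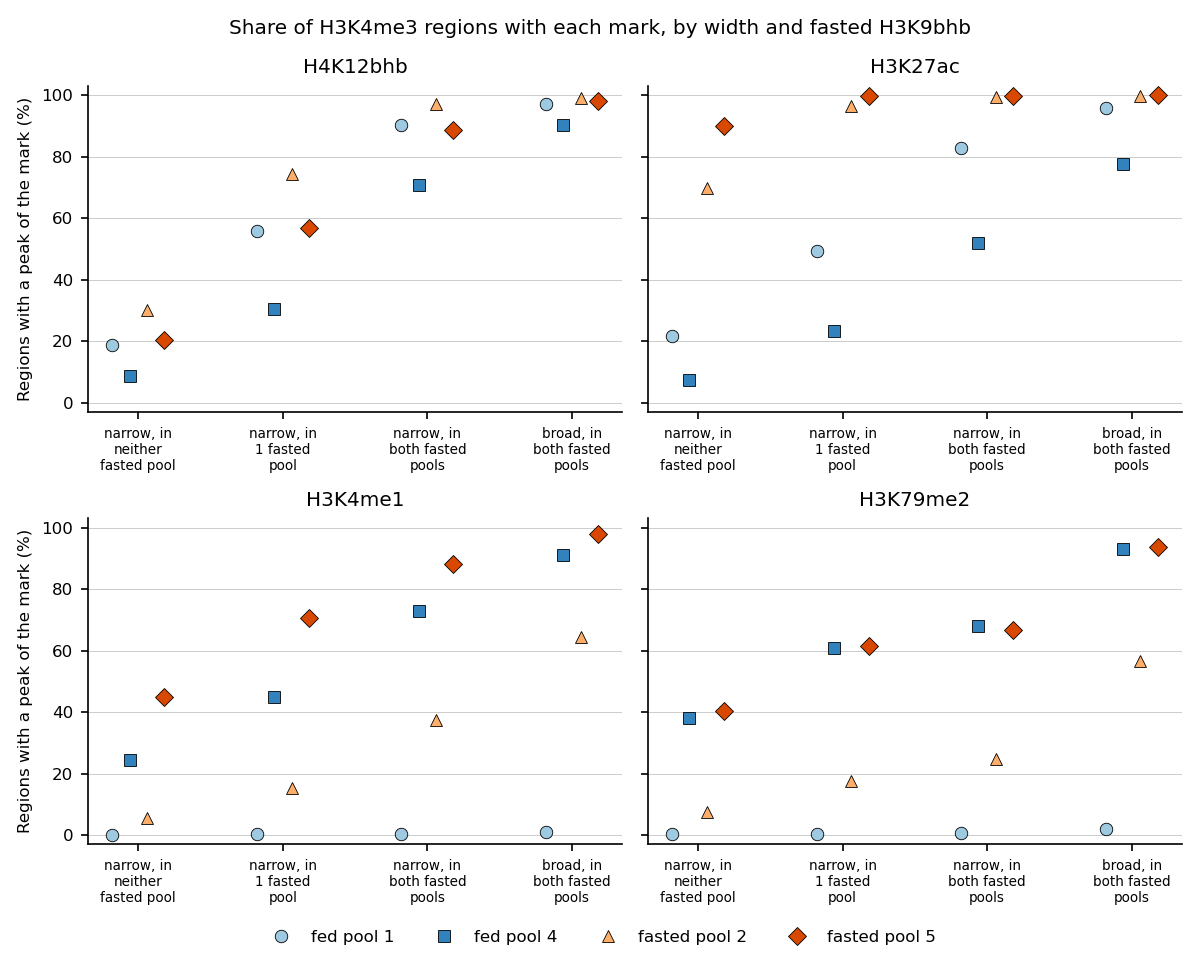
Share of regions (y axis, percent) that meet a peak of H4K12bhb, H3K27ac, H3K4me1 or H3K79me2, for narrow regions with H3K9bhb in neither, 1 or both fasted pools and for broad regions with H3K9bhb in both (x axis). Each symbol is 1 pool. In every pool the share climbs from regions without H3K9bhb to members and on to broad regions, and H4K12bhb separates the first group from members by 62.0 to 71.4 points.

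Narrow regions with H3K9bhb in only 1 fasted pool lay between both groups. Their H4K12bhb shares were 56.0% and 30.3% in fed pools and 74.4% and 56.7% in fasted pools. Members exceeded them by 32.5 ± 7.3 points for H4K12bhb, 16.4 ± 17.2 for H3K27ac, 17.0 ± 12.0 for H3K4me1 and 4.86 ± 3.16 for H3K79me2 (SD, n = 4 pools, each positive in 4 of 4 pools with an exact permutation p of 0.125). Broad regions exceeded members for all 4 marks. Members minus broad regions gave -9.88 ± 12.3 points for H3K27ac, -9.31 ± 7.5 for H4K12bhb, -13.8 ± 11.3 for H3K4me1 and -21.3 ± 13.7 for H3K79me2 (SD, n = 4 pools, 0 of 4 pools higher at members, exact permutation p = 0.125 each). In fasted pools 2 and 5 the H3K27ac difference was only -0.31 and -0.17 points, with both groups above 99%. Where 50% of a region had to be covered, the differences were -2.47 points for H3K27ac and -3.51 for H3K4me1 (exact permutation p = 0.5 each). For H3K27ac members were then higher in fasted pool 2 (98.3% against 97.7%) and in fasted pool 5 (99.7% against 99.6%). For H3K4me1 they were higher in fasted pool 2 (11.5% against 8.95%) and in fed pool 1 (0.10% against 0%).

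Values on either side of the 5000 bp limit are given without a test. The 576 members of 4500 bp or more had fed H3K9bhb at 62.8% and 60.2%, and the 440 broad regions below 5500 bp at 71.4% and 68.4%. H3K79me2 in fasted pool 5 stood at 91.3% in the first and 92.3% in the second of these sets, and H4K12bhb at 97.0% and 97.3%. In fasted pool 2 H3K4me1 stood at 47.6% and 58.2% and H3K79me2 at 45.3% and 52.3%, and in fed pool 4 H3K27ac stood at 61.6% and 67.3%. Just inside the limit lay regions of 4998 bp on chromosome 13 (43572980 to 43577977) and chromosome 7 (54304947 to 54309944), and of 4996 bp on chromosome 9 (123120976 to 123125971). Just outside lay regions of 5000 bp on chromosome 1 (169304436 to 169309435), and of 5002 bp on chromosomes 11 (95168720 to 95173721) and 13 (58500564 to 58505565). The 3 members had H3K9bhb in both fed pools, whereas the regions just outside had it in both, 1 and no fed pool. Positions are on the mm9 build and counted from 1.

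The contrast with narrow regions lacking H3K9bhb was present in each of 4 length classes for H4K12bhb and H3K27ac in every pool, and for H3K4me1 and H3K79me2 in pools 4, 2 and 5. In the short lists of fed pool 1 it turned for H3K79me2 from 2000 to below 3000 bp (0.08% of members against 0.22%) and from 3000 to below 4000 bp (0.88% against 1.18%), and for H3K4me1 in the longest class (0.61% against 1.23%). Members made up 31.9% of narrow regions below 2000 bp, 38.6% of those from 2000 to below 3000 bp, 61.5% of those from 3000 to below 4000 bp and 83.2% of those from 4000 to below 5000 bp. Below 2000 bp, H4K12bhb met 65.7% to 94.0% of the 531 members and 4.1% to 16.1% of the 858 regions without H3K9bhb. In the longest class it met 79.4% to 98.8% of 1303 members and 24.7% to 60.5% of 81 regions without. The ranges over the 4 pools do not overlap in either class. H3K79me2 was more frequent in longer regions of both groups. In fasted pool 5 it met 27.5%, 48.6%, 75.8% and 88.6% of members from the shortest to the longest class. Among regions without H3K9bhb it met 13.9%, 44.0%, 70.0% and 71.6%, so that its gap between the groups was smaller than that of H4K12bhb in every class of this pool.

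**Figure D2:**
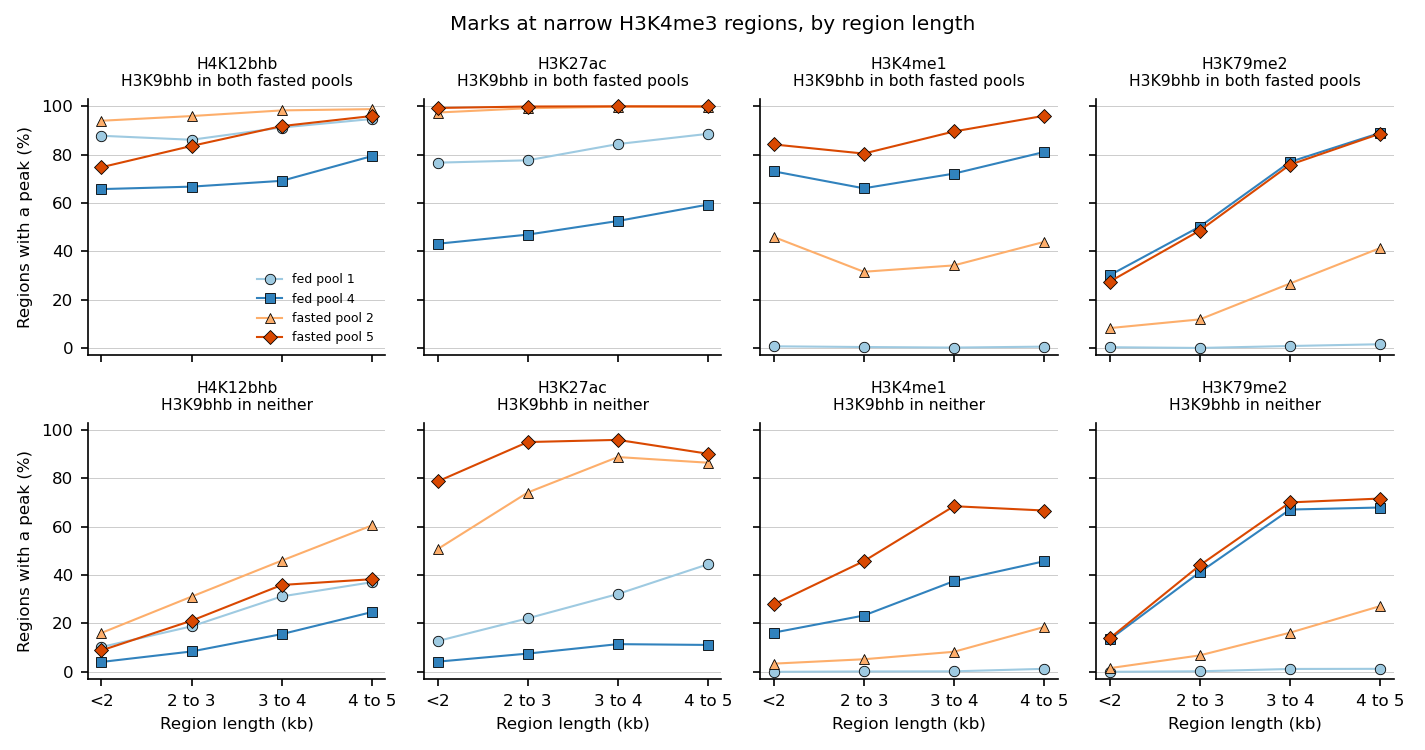
Share of narrow regions (y axis, percent) with a peak of each mark in 4 classes of region length (x axis, kb), for members (upper row) and for narrow regions with H3K9bhb in neither fasted pool (lower row). Each line is 1 pool. H4K12bhb met 65.7% or more of members in every class and pool, fed pool 4 H3K27ac ran from 43.1% to 59.3%, and H3K79me2 was more frequent in longer regions of both groups in pools 4, 2 and 5.

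In each fed list H3K9bhb was called at close to 50% of members. The mark was called at 51.0% of members in fed pool 1 (Wilson 95% interval 49.6% to 52.4%) and at 46.3% in fed pool 4 (44.8% to 47.7%), intervals that cover counting error only. Narrow regions without fasted H3K9bhb had it at 2.6% and 2.3% in the same lists, and broad regions at 81.2% and 79.8%. Fasted H3K9bhb chose the members, so their fed and fasted shares were not tested against each other. H3K9bhb was called in at least 1 fed pool at 3180 members (65.7%) and in all 4 pools at 1529 (31.6%), where 21.9% of all 12324 regions in both fasted H3K4me3 lists had it in all 4. At 1661 members (34.3%) it was in both fasted and no fed pool, a pattern that 15.1% of the 12324 regions had. The rule required the fasted part of both patterns, so nothing is read from these counts.

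With equal numbers of top-scoring H3K9bhb peaks, 13923 per list, the mark met 42.1% and 46.3% of members in fed pools and 65.6% and 72.2% in fasted pools. Because the members were chosen on the fasted lists, the order of these values follows from the rule and nothing is read from it.

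Most members without fed H3K9bhb carried another acyl mark in fed crypts, as did most members at large. Of these 1661 regions, 68.0% and 33.0% had H3K27ac in fed pools 1 and 4, and 80.6% and 49.7% had H4K12bhb. Fed H3K27ac or H4K12bhb was called at 1538 of them (92.6%), both marks at 1120, and neither at 123 (7.4%). Taken singly, H4K12bhb had a call in at least 1 fed pool at 84.9% of them, below the 93.1% of all members. Among the 12324 regions in both fasted H3K4me3 lists it was 65.1%. The H3K27ac values in the same order were 75.1%, 87.8% and 63.1%. The share with either mark was not computed for the larger sets, so the 92.6% is not read as particular to these regions. Where both fed pools had H3K9bhb (1529 members), H3K27ac was more frequent in fed pools 1 and 4, at 95.2% and 73.1%. H4K12bhb reached 98.2% and 92.4% there. The 941 members with H3K9bhb in fed pool 1 only and the 710 with it in fed pool 4 only lay between for both marks. H3K4me1 went the same way, with 60.5% in fed pool 4 where no fed pool had H3K9bhb and 86.1% where both had it. In fasted pool 2 its shares were 26.2% and 52.8%. H3K79me2 differed little over these patterns, with 65.1% in fed pool 4 where no fed pool had H3K9bhb and 69.5% where both had it. The median length was 3165 bp where no fed pool had H3K9bhb and 3612 bp where both had it, and its part was not tested.

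The same order held inside single fed pools, where both marks come from 1 pool but from separate libraries. In fed pool 1, H3K27ac met 92.4% of the 2470 members with H3K9bhb and 72.9% of the 2371 without. In fed pool 4 it met 67.4% of 2239 members with H3K9bhb and 38.5% of 2602 without. For H4K12bhb the corresponding shares were 96.6% and 83.9% in fed pool 1, and 86.4% and 57.5% in fed pool 4. In fed pool 4 H3K4me1 stood at 81.9% and 65.4%, and H3K79me2 at 69.3% and 66.7%. Members are not replicates of a condition, and with 2 fed pools these differences carry no test.

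**Figure D3:**
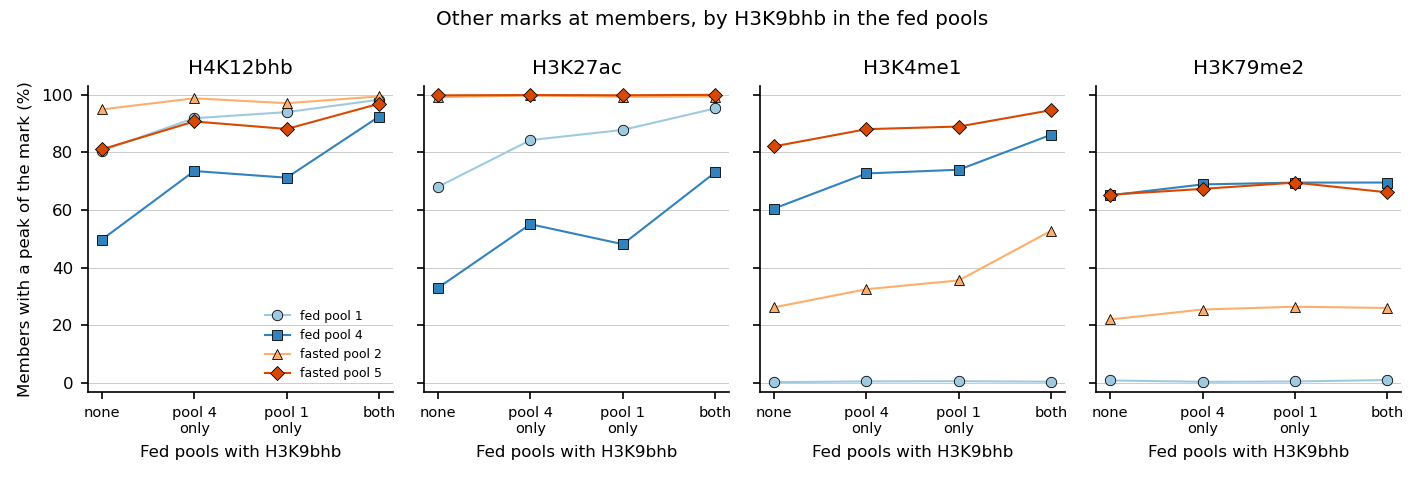
Share of members (y axis, percent) with H4K12bhb, H3K27ac, H3K4me1 or H3K79me2, grouped by the fed pools in which H3K9bhb was called (x axis: none, n = 1661, pool 4 only, n = 710, pool 1 only, n = 941, both, n = 1529). Each line is 1 pool. Fed H4K12bhb and H3K27ac are lowest where no fed pool had H3K9bhb and highest where both had it, while H3K79me2 stays nearly level.

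Between fed and fasted crypts the marks that the rule did not use differed by unequal amounts. Members were chosen on fasted lists of other marks, and the part of that choice in these differences was not tested. The H3K27ac share of members was 67.3 ± 21.9% in fed and 99.6 ± 0.4% in fasted pools (SD, n = 2 each), a difference of 32.2 points, with 16.5 points within run 10 and 48.0 within run 11. Both fasted values lay above both fed values, and the two-sided exact permutation p was 0.33, the smallest that 2 against 2 pools allow. Without fed pool 4 the H3K27ac difference was 16.7 points. At narrow regions without H3K9bhb the H3K27ac difference was larger, 65.5 points (48.3 in run 10 and 82.7 in run 11), and at broad regions 13.0 points. The H3K27ac lists held 27640 and 15504 peaks in fed pools 1 and 4, and 37974 and 35917 in fasted pools 2 and 5. H4K12bhb differed by 12.4 points, 6.90 in run 10 and 17.95 in run 11, but fed pool 1 lay above fasted pool 5, so the groups overlapped (exact permutation p = 0.67). Without fed pool 4 the H4K12bhb difference was 2.66 points, and without fed pool 1 it was 22.2 points. With all pools it was 11.4 points at narrow regions without H3K9bhb and 4.60 points at broad regions. H3K4me1 differed by 26.1 points (36.9 in run 10 and 15.2 in run 11, exact permutation p = 0.67) and became -10.2 points without fed pool 1. H3K79me2 differed by 11.3 points (exact permutation p = 1), with 23.9 in run 10 and -1.22 in run 11. Without fed pool 1 it was -22.2 points, without fasted pool 5 it was -9.69, and without fed pool 4 it was 44.9. Leaving out fed pool 1 thus turned the direction of both marks, and the part of its short lists in the result was not tested.

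At single members, calls of H3K27ac or H4K12bhb in both fasted pools and in no fed pool were uncommon. H3K27ac had this pattern at 577 members (11.9%) against 22.9% of the 12324 regions in both fasted H3K4me3 lists, members included, and H4K12bhb at 194 (4.0%) against 5.01%. H3K27ac was in all 4 pools at 2256 members (46.6%) against 31.6%, and H4K12bhb at 3102 (64.1%) against 40.3%. H3K4me1 was gained in this sense at 133 members (2.75%) against 2.22%, and H3K79me2 at 17 (0.351%) against 0.365%, shares close to the background. H3K4me3, which chose the members, was in no fed list at 3515 of them (72.6%), where 74% of the 12324 regions had no fed peak. Fed H3K4me3 shares were 26.2% in pool 1 and 2.1% in pool 4, in lists of 3430 and 295 peaks.

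The extent of H3K9bhb within a member is given as a description, because its fasted calls chose the members. Where it was called, its peaks covered a median of 48.0% and 47.0% of the member in fed pools 1 and 4, and of 74.8% and 76.0% in fasted pools 2 and 5. The longest overlapping H3K9bhb peak had a median length of 1583 and 1532 bp in fed pools and 2410 and 2556 bp in fasted pools. Fasted H3K27ac covered a median of 95.7% and 99.9% of the member, and fasted H4K12bhb 90.0% and 69.9%. H3K9bhb peaks lay wholly inside the member at 49.6% and 58.3% of cases in fed pools and at 37.6% and 40.1% in fasted pools. Peak width moves with list depth, which is unknown, and its part in these widths was not tested.

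H3K79me2, which spreads from a start into the gene, gave some members an orientation without gene annotation. At 1929 members H3K79me2 peaks of pools 4 and 5 reached beyond the same single end, and members were turned by that end. In these members H3K9bhb was highest in the bins next to the centre, with 31.2% and 29.3% of bases covered in fed pools 1 and 4 and 85.6% and 92.3% in fasted pools 2 and 5. The 500 bp around the centre exceeded the flanks for H3K9bhb by 21.6 and 22.96 points in fed pools 1 and 4 and by 57.3 and 65.5 points in fasted pools 2 and 5, a description, since the rule asked for fasted H3K9bhb on the member itself. For marks outside the rule the excess was 52.1 ± 11.7 points for H4K12bhb and 51.3 ± 16.3 for H3K27ac (SD, n = 4 pools, positive in 4 of 4, exact permutation p = 0.125 each). A flank here is the 1000 bp beyond one end of the member.

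Inside the members H3K9bhb leaned away from H3K79me2, and beyond their ends it had no constant side. On the member's own bases between the centre and the end with H3K79me2, H3K9bhb coverage was 22.5% and 17.4% in fed pools 1 and 4 and 60.6% and 61.8% in fasted pools 2 and 5. On the opposite side it was 22.9%, 21.9%, 67.8% and 71.0% in the same order. The difference was -5.33 ± 3.80 points (SD, n = 4 pools, lower in 4 of 4), of which fed pool 1 showed only -0.39. It is a description, because fasted H3K9bhb chose the members. H3K27ac leaned the same way, by -13.2 ± 3.8 points (n = 4 pools, lower in 4 of 4, exact permutation p = 0.125), and H4K12bhb by -3.87 ± 4.41 points (n = 4 pools, lower in 3 of 4, exact permutation p = 0.25). These inner differences were computed after the coverage profile had been seen. H3K4me3, whose merged peaks set the centre, was also unequal. In bins 1375 bp from the centre it covered 7.25%, 0.18%, 72.4% and 85.1% on the side without H3K79me2 in pools 1, 4, 2 and 5. On the side with H3K79me2 it covered 2.42%, 0.16%, 61.7% and 83.4%. At 2125 bp fasted pool 5 went the other way, with 24.6% and 25.6%. The part of H3K4me3 in the inner differences was not tested. On the flanks the picture differed. The H3K9bhb coverage of the flank with H3K79me2 minus that of the other flank was 0.31 ± 2.00 points (SD, n = 4 pools, exact permutation p = 0.875), being -0.98 and -1.40 in fed pools and 0.60 and 3.03 in fasted pools. For H4K12bhb the difference was -0.55 ± 6.04 points (exact permutation p = 0.875), negative in both fed and positive in both fasted pools. H3K27ac covered less of the flank with H3K79me2 in 4 of 4 pools, by -5.85 ± 2.83 points (exact permutation p = 0.125). H3K4me1 covered more of it in 4 of 4 pools, by 17.9 ± 15.6 points (exact permutation p = 0.125), with 48.3% against 18.2% in fed pool 4 and 54.6% against 22.7% in fasted pool 5. Its coverage was highest 1125 to 1375 bp from the centre on that side in pools 4, 2 and 5. H3K79me2 chose the side, so its own asymmetry is not a result.

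A second measure took each pool's own H3K79me2 side and asked to which side the H3K9bhb peak reached further. The sides matched at 47.7% of 333 usable members in fed pool 4, 60.4% of 346 in fasted pool 2 and 53.8% of 1165 in fasted pool 5. Fed pool 1 had 1 usable member and was left out. The mean was 54.0 ± 6.3% (SD, n = 3 pools), where 50% means no preference, and the exact permutation test gave p = 0.5 where 0.25 is the smallest value possible. H3K4me1 matched the H3K79me2 side at 76.9 ± 2.8% (n = 3 pools, exact permutation p = 0.25), which exceeded H3K9bhb by 22.9 ± 4.3 points. H3K27ac matched it at 41.0 ± 2.9% (n = 3 pools, exact permutation p = 0.25).

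**Figure D4:**
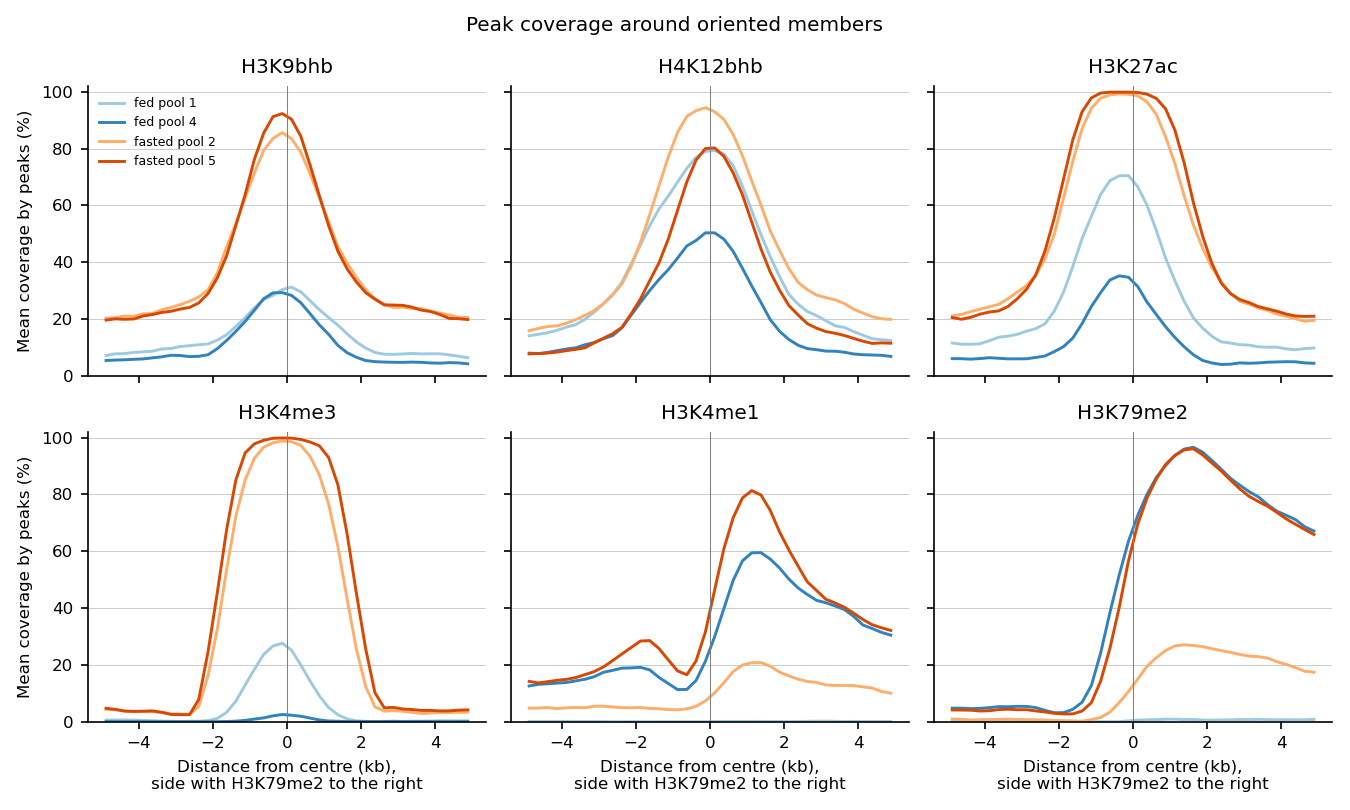
Mean coverage by peaks (y axis, percent of bases in 250 bp bins) around the centres of 1929 members turned so that H3K79me2 lies to the right (x axis, distance in kb). Lines are the 4 pools. H3K9bhb forms a hump over the centre that in pools 4, 2 and 5 leans to the side without H3K79me2, fasted H3K27ac forms a broader plateau, and H3K4me1 is higher on the side of H3K79me2, which set the orientation.

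Within the chosen members, the rank by H3K9bhb followed the rank by H4K12bhb and H3K27ac, and hardly the rank by H3K4me3. Scores were turned into percentiles of their own list, and the Spearman correlation across members describes regions of 1 pool that share the input and the peak caller. In fasted pools 2 and 5 the correlation of H3K9bhb with H4K12bhb was 0.63 (n = 4710) and 0.58 (n = 4300), and with H3K27ac it was 0.60 (n = 4808) and 0.62 (n = 4833). With H3K4me3 it was -0.006 and -0.018 (n = 4841 each). The rule chose members on fasted H3K4me3, fasted H3K9bhb and length, so these 2 values do not extend beyond members. Median H3K4me3 percentiles in fasted pools 2 and 5 were 42.5 and 55.0 at narrow regions without H3K9bhb. They were 63.9 and 70.6 at members and 91.5 and 93.9 at broad regions. In fed pools 1 and 4 the correlation of H3K9bhb was lower, at 0.43 (n = 2386) and 0.39 (n = 1935) with H4K12bhb. With H3K27ac it was 0.37 (n = 2282) and 0.29 (n = 1508). The fasted pools ranked members alike for H3K9bhb, at 0.64 (n = 4841), and the fed pools less so, at 0.27 over the 1529 members that both called. The range of lists and thresholds differs between those pairs, and no p is given because members are not independent samples.

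The surroundings of members held other regulatory peaks. The next H3K4me3 region lay at a median of 9829 bp from a member, 24237 bp from a narrow region without H3K9bhb and 8398 bp from a broad region. At 877 members (18.1%) it lay within 1000 bp, against 8.28% of narrow regions without. An H3K9bhb peak away from every H3K4me3 region lay within 10000 bp of 43.2% and 29.9% of members in fed pools and of 65.2% and 61.4% in fasted pools. For narrow regions without H3K9bhb the shares were 4.94%, 3.31%, 11.6% and 10.2% in the same order. The difference was 42.4 ± 12.5 points (SD, n = 4 pools, higher in 4 of 4). It is a description, because the fasted H3K9bhb lists chose both groups. Distal H3K27ac, which the rule did not use, showed 38.8 ± 7.3 points (n = 4 pools, higher in 4 of 4, exact permutation p = 0.125). Members minus broad regions gave -7.76 ± 1.20 points for distal H3K9bhb (n = 4 pools), again a description. For distal H3K27ac the value was -5.83 ± 0.97 points (n = 4 pools, exact permutation p = 0.125). Of all H3K9bhb peaks of a pool, members held 15.3% and 18.7% in fed pools and 15.4% and 15.4% in fasted pools.

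Members were spread over the autosomes and scarce on chromosome X. They made up 52.4% of narrow regions on autosomes, from 41.1% on chromosome 13 to 60.7% on chromosome 11. On chromosome X they were 19 of 174 (10.9%, Wilson 95% interval 7.10% to 16.4%), and the single narrow region on chromosome Y was not a member. Marks outside the rule were also less frequent at the 174 X-linked narrow regions. H4K12bhb met 19.0% and 8.05% of them in fed pools and 29.3% and 15.5% in fasted pools, against 63.5%, 45.5%, 73.7% and 63.3% of autosomal narrow regions. The difference was -43.6 ± 4.4 points (SD, n = 4 pools, lower in 4 of 4, exact permutation p = 0.125). H3K27ac met 6.32% and 0.57% in fed pools but 62.1% and 96.6% in fasted pools, against 59.3%, 33.8%, 90.5% and 96.9% on autosomes. In fasted pool 5 the chromosomes thus differed by only -0.31 points. H3K4me1 reached at most 8.05% on chromosome X, in fasted pool 5, where autosomes had 73.2%. Animals of both sexes were pooled, so the number of X chromosomes per pool is unknown, and its part in these shares was not tested. Only 5, 2, 64 and 119 peaks of the H3K9bhb lists of fed pools 1 and 4 and fasted pools 2 and 5 lay on chromosome X.

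**Figure D5:**
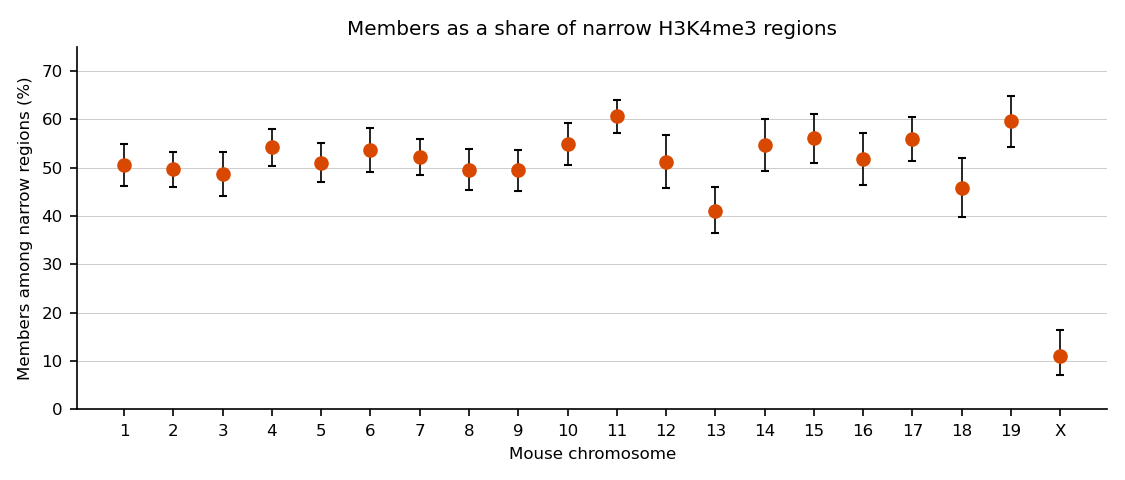
Members as a share of narrow H3K4me3 regions in both fasted lists and without fasted H3K27me3 (y axis, percent) on each mouse chromosome (x axis). Bars are Wilson 95% intervals and cover counting error only. Autosomes lie between 41.1% and 60.7%, and chromosome X at 10.9%.

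The members with the strongest fasted H3K9bhb met fasted H3K9bhb peaks of 4758 to 18576 bp. They were ranked by the lower of their 2 fasted score percentiles. The leading member, 2727 bp on chromosome 11 (100147989 to 100150715), was covered fully by H3K9bhb peaks of 10402 and 10623 bp in fed pools 1 and 4 and of 11280 and 13084 bp in fasted pools 2 and 5. Its H3K4me3 scores stood only at the 28.9th and 29.5th percentiles of the fasted lists. H4K12bhb covered it fully in 4 of 4 pools, H3K27ac fully in 3 and by 60.9% in fed pool 4.

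The next 2 members in this order lay on chromosome 17 (28407198 to 28411673) and chromosome 7 (108255506 to 108260433). On chromosome 17 H3K9bhb coverage was 26.6% and 75.2% in fed pools and 93.5% and 100% in fasted pools. Further members lay on chromosomes 5 (140208752 to 140212664), 10 (59411101 to 59416086), 14 (56088485 to 56090780), 17 (84533225 to 84537172) and 2 (165706568 to 165710707). The member on chromosome 2 lay within fasted H3K9bhb peaks of 18395 and 18576 bp, against 2486 and 5144 bp in fed pools. The member on chromosome 14 had no H3K9bhb and no H3K27ac in fed pool 4, and, like the second one on chromosome 17, no H3K79me2 in any pool. Of these 8 members, 7 had H3K9bhb in both fed pools, and the eighth had it in fed pool 1.

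The members with the strongest fed H3K9bhb fell into 3 places. On chromosome 1 a pair of neighbours (135988927 to 135991026 and 135992505 to 135996935) lay under 1 H3K9bhb peak of 9489 bp in fed pool 1. In fasted pools 2 and 5 the peaks had 17169 and 18761 bp. In fed pool 4 the longest H3K9bhb peak at both neighbours had 5734 bp, and H3K9bhb covered 100% and 91.8% of them. That peak was too short for this coverage, so the pair met more than 1 peak in fed pool 4. On chromosome 12 another pair (103918694 to 103920664 and 103922898 to 103924750) shared peaks of 9435 and 9951 bp in fed pools 1 and 4. Its peaks in fasted pools 2 and 5 had 10658 and 15987 bp. The fifth was a single member on chromosome 11 (53575424 to 53578580). Neighbours that meet the same peak share its score and count as 1 place. H4K12bhb was called at these 5 members in every pool, and H3K79me2 was called at the pair on chromosome 12 only.

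Among members with H3K27ac in both fasted and no fed pool, 5 tied at the highest lower percentile, 96.0. The tie arises in fasted pool 5, where 1282 H3K27ac peaks (3.57% of the list) share a score of 3100. They lay on chromosome 11 (52171217 to 52172736, 60228394 to 60233253 and 70026669 to 70029060), chromosome 14 (79885484 to 79889237) and chromosome 19 (55912468 to 55913839). The first had no fed H3K9bhb, and each of the other 4 had it in at least 1 fed pool. H4K12bhb was called in at least 1 fed pool at all 5. The same held for 93.1% of all members and 65.1% of the 12324 regions in both fasted H3K4me3 lists, so nothing is read from these 5.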

How the data were processed

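The deposited files are peak lists of 5 columns (chromosome, start, end, name and score), 1 for each of 8 marks in each of 4 pools, 32 of 36 samples, with the 4 inputs used in calling. Each score is −10 log10 of p from the authors' peak caller, 50 at the lowest. Peaks were called with MACS 1 without model building against the input of the same pool, per the file names. The build mm9 and the tools Bowtie 1.1.2, SAMtools 1.9, deepTools 1.5.11 and FastQC come from the submitters' processing notes. Read depth and other settings are not given in the sources used. A call depends on depth, antibody and input, so an absent peak is not an absent mark.

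Groups were taken from the labels. A region has a mark where a peak overlaps it by 1 bp. Shares of regions were compared within pools by exact two-sided sign-flip permutation tests, and fed with fasted pools by exact permutation over 4 pools. Pools with fewer than 20 usable regions were left out of the side shares, although the design named all 4. Intervals are Wilson 95% intervals and cover counting error only. Scores were used as percentiles within a list. Positions count from 1. Python 3.11.15, numpy 2.4.6, pandas 2.3.3, scipy 1.17.1 and matplotlib 3.10.9 were used. Overlaps matched bedtools 2.31.1 in 7 of 7 checks, and on simulated data 2361 of 2361 planted members were recovered among 8000 regions.

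Named regions are the 8 members with the highest lower fasted H3K9bhb percentile, 5 by fed H3K9bhb, 5 by fasted H3K27ac without fed H3K27ac, and the 3 on either side of the length limit, chromosome 18 passed over. Members, lists and comparisons were chosen with earlier results of these data known. Alternatives were a score of 100 or more, 50% of the region covered, merging across gaps of 1000 bp, a limit of 3000 bp, regions from 2000 to below 5000 bp only, equal numbers of top-scoring peaks, single runs and each pool left out. The gene reference used here is on another build than mm9, so no gene or sequence was placed.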

Additional observations from a re-analysis of the deposited data

Results flagged for a closer look

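The H3K79me2 share of members moved in opposite directions between fed and fasted crypts in the runs named in the file names. In run 10 it was 23.9 points higher in fasted pool 2 than in fed pool 1, and in run 11 it was -1.22 points, lower in fasted pool 5 than in fed pool 4. The difference between runs was not tested, because each run holds 1 pool per condition. The H3K79me2 list of fed pool 1 held 571 peaks, against 14129 in fasted pool 2, 33841 in fed pool 4 and 31246 in fasted pool 5. The part of list length in this difference was not tested.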

How the results depend on the processing

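The excess of members over narrow regions without H3K9bhb kept its direction in 40 of 40 values under the alternatives, including regions from 2000 to below 5000 bp only and, chosen after seeing the data, chromosome X left out, with 27.8 to 45.0 points for H3K27ac, 61.3 to 69.0 for H4K12bhb, 18.1 to 41.3 for H3K4me1 and 7.52 to 24.4 for H3K79me2. The exact permutation p for H3K79me2 was 0.25 where 50% of the region had to be covered, and that for H3K4me1 was 0.25 with a score of 100 or more. The mean shortfall against broad regions kept its direction in 28 of 28 values, -2.47 points for H3K27ac and -3.51 for H3K4me1 with 50% covered, where not every pool showed it. With a score of 100 or more the H3K27ac shortfall was -9.60 points (exact permutation p = 0.5). Fasted minus fed kept its direction in 38 of 42. These include H3K79me2 at only 0.15 points with 50% covered and H3K4me1 at only 0.66 points without fasted pool 5. The 4 exceptions were H3K4me1 (-10.2 to 62.4 points with each pool left out) and H3K79me2 (-22.2 to 44.9 points with each pool left out, and -1.22 within run 11). With a score of 100 or more, members numbered 2912 in place of 4841, their mean fed H3K9bhb share was 27.7% in place of 48.6%, and the H3K9bhb and H3K79me2 sides matched at 47.8% in place of 54.0%. With a limit of 3000 bp the count was 1827 and the fed H3K9bhb share 43.5%. That share was 22.4% where 50% of the member had to be covered and 44.2% with equal numbers of top-scoring peaks. With fed pool 1 and its single usable member, an alternative chosen after seeing the data, the sides matched at 40.5% (exact permutation p = 0.875). Apart from fewer peaks or shorter regions by construction, the cause was not tested. No paired analysis was possible because the fed pools carry the numbers 1 and 4 and the fasted pools 2 and 5, which gives no pairing by replicate number; the differences within runs 10 and 11 pair pools by file name only, 1 pair per run. Read depth is unknown, so a mark below the calling threshold and an absent mark cannot be told apart, least of all in the fed H3K4me3 lists and in the H3K4me1 and H3K79me2 lists of fed pool 1.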

Other observations

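Broad regions with H3K9bhb showed the same order of sides as members. Their H3K9bhb peaks reached further on the H3K79me2 side at 51.4 ± 7.4% (SD, n = 3 pools, exact permutation p = 0.75), and their H3K4me1 peaks at 77.6 ± 3.3% (n = 3 pools, exact permutation p = 0.25, the smallest value possible). The H3K9bhb score percentiles of members had medians of 65.2 and 63.8 in fed and 76.4 and 78.1 in fasted lists. Those of broad regions were 85.6 and 83.0 in fed and 91.8 and 93.0 in fasted lists. The 19 members on chromosome X are too few for shares by pool.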
